A study of Mus musculus with 20 samples.

Results

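The mitochondrial ribosome is the particle that translates, inside mitochondria, the few proteins encoded by mitochondrial DNA, all of them core subunits of the respiratory chain and ATP synthase. Its RNAs come from mitochondrial DNA, whereas all of its proteins are encoded in the nucleus, made in the cytosol and imported. The proteins of the large subunit (mostly Mrpl genes) surround the site where peptide bonds form. Those of the small subunit (mostly Mrps genes) surround the site where the messenger RNA is read. The members were taken by name: every protein-coding mouse gene whose symbol starts with Mrpl or Mrps followed by a digit and whose RefSeq accession was on the array. All 78 such RefSeq symbols were found, 49 named Mrpl and 29 named Mrps, among 18739 genes measured. The name does not always give the place of the protein, as with Mrps36 below. All 78 gave a signal above background on all 20 arrays, as did 79.3% of all genes measured, so no member was lost to the filter on dim probes.

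RNA came from a murine B16 Bcr-Abl+ line, a melanoma line that carries the Bcr-Abl fusion kinase, transfected with plasmids for the NF-kB subunit p65/RelA. The groups were the WT form (WT), the non-cleavable D361E mutant (D361E), the fragment of residues 1 to 361 (N-fragment), the fragment of residues 362 to 549 (C-fragment), both fragments together (N+C), and void plasmid (void). N+C had 5 arrays and each other group had 3, 20 in all. All groups were the same Bcr-Abl+ line, for which the labels give the strain as mouse C3H eOuJ, and the title Blanck was taken to mean void plasmid. The labels do not say whether samples of a group were separate transfections, so a p-value speaks only of the spread among these arrays, which may be technical. In bulk RNA, fewer cells that express a gene and less RNA per cell cannot be told apart.

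Expression was read with Cy3-labelled RNA on 1-colour Agilent arrays. Levels below are log2 signals relative to the 75th percentile of each array, and a level of a gene is comparable between arrays but not with that of another gene. Differences are log2 differences with their standard error, and a gene is called changed when its adjusted p (limma, Benjamini-Hochberg over all 18739 genes) is under 0.05. The arrays sat on 5 slides of 4. Slides 1 and 4 held no void array, and each held 1 array of WT, the N-fragment and the C-fragment. Slide and construct were therefore partly confounded in the comparisons with void. Between 51.1 and 57.9% of spots were well above background on each array. Against void Rela itself was called only with the N-fragment, higher by 0.36 ± 0.07 log2 (adjusted p = 0.00089), with levels of 4.39 to 4.69 on N-fragment arrays and 4.14 to 4.19 on void arrays, and where its probe lies in the gene was not worked out here. All 16 melanocyte markers were measured and 15 exceeded background on all arrays, with summed linear signals of 1320 to 1410 with WT, 1490 to 1660 with D361E, 1310 to 1530 with the N-fragment, 1460 to 1620 with the C-fragment, 1420 to 1500 with N+C and 1510 to 1620 in void. Only 4 of 15 blood and B-cell markers, 3 of 7 macrophage and 2 of 6 epithelial markers passed the filter, and Ptprc, Cd79a, Cd79b, Ms4a1 and Pax5 did not. The 4 blood and B-cell markers (Vpreb1, Cd3e, Cd4 and Coro1a) and the 3 macrophage markers (Csf1r, Cd68 and Itgam) exceeded background on all arrays. Of the 2 epithelial markers 0 did. On void arrays the blood and B-cell markers summed to 1.19 to 1.47 (linear signal) and the macrophage markers to 2.72 to 5.26. Of 8 fibroblast markers 4 were measured, 1 of them above background on all arrays. They summed to 1.04 to 1.15 (linear signal relative to the percentile) on WT arrays, 1.18 to 1.62 on D361E arrays, 2.82 to 3.47 on N-fragment arrays, 0.648 to 0.731 on C-fragment arrays, 0.183 to 0.67 on N+C arrays and 1.27 to 1.62 on void arrays, while Col3a1, Pdgfrb, Dcn and Lum were not measured. The part of these markers in the results below was not tested. The 5 N+C arrays fell into a set of 3 and a set of 2, described further on, and the counts of members called with N+C are given with and without each set.

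Transcripts of the mitochondrial ribosome moved little in these cells. The groups' mean levels of a member spanned a median of 0.24 log2, against 0.52 log2 over all genes measured. The largest span was 1.21 log2, for Mrps6, and the next was 0.69 log2, for Mrpl1. The median size of the difference from void was 0.09 log2 with WT, 0.08 with D361E, 0.11 with the N-fragment, 0.09 with the C-fragment and 0.13 with N+C, against 0.18, 0.18, 0.27, 0.20 and 0.21 over all genes. Members were also measured more tightly than most genes: their median standard error was 0.08 log2 in the comparisons with 3 arrays a group, against 0.14 over all genes. For 73 of the 78 members the 95% interval of the difference from void lay within 0.5 log2 (1.41-fold) either way with WT, and the same number did so with each of D361E, the C-fragment and N+C. With the N-fragment this held for 64 members. Over all genes it held for 48.9% with WT, 47.1% with D361E, 37.6% with the N-fragment, 46.5% with the C-fragment and 46.6% with N+C.

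Against void, 4 members were called with WT, 5 with D361E, 17 with the N-fragment, 2 with the C-fragment and 17 with N+C. Over all genes measured, 9.39% were called with WT, 13.5% with D361E, 31.1% with the N-fragment, 13.1% with the C-fragment and 24.6% with N+C. The members' shares were 5.13, 6.41, 21.8, 2.56 and 21.8% in that order. The members called were 0 higher and 4 lower with WT, 0 higher and 5 lower with D361E, 7 higher and 10 lower with the N-fragment, 1 higher and 1 lower with the C-fragment, and 10 higher and 7 lower with N+C. At an unadjusted p under 0.05 the counts were 11, 10, 23, 16 and 27. The 5 comparisons share the void arrays.

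These splits hold for values scaled to each array's 75th percentile and turn over without that scaling. In the deposited table, which is not scaled between arrays, the median of all genes lay above void by 0.37 log2 with WT, 0.12 with D361E, 0.28 with the N-fragment, 0.21 with the C-fragment and 0.19 with N+C. The members' own medians there were 0.35, 0.09, 0.35, 0.27 and 0.25. The unscaled calls were 53 higher and 0 lower with WT, 2 and 1 with D361E, 46 and 2 with the N-fragment, 23 and 0 with the C-fragment, and 33 and 1 with N+C. Over all genes 41.0, 12.8, 39.7, 18.0 and 29.7% were called there. The members' share was above that of all genes with every construct but D361E. With scaling the members' median difference was -0.05 log2 with WT, -0.06 with D361E, 0.02 with the N-fragment, 0.04 with the C-fragment and 0.04 with N+C, against -0.03, -0.04, -0.06, -0.02 and -0.03 over all genes. With quantile normalization the C-fragment split was 2 and 2, and with normexp background correction it was 3 and 2 and the WT split 1 and 1. Over all genes 13.0, 11.8 and 8.22% were called in these cases. All directions below are relative to the 75th percentile of the array.

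**Figure D1:**
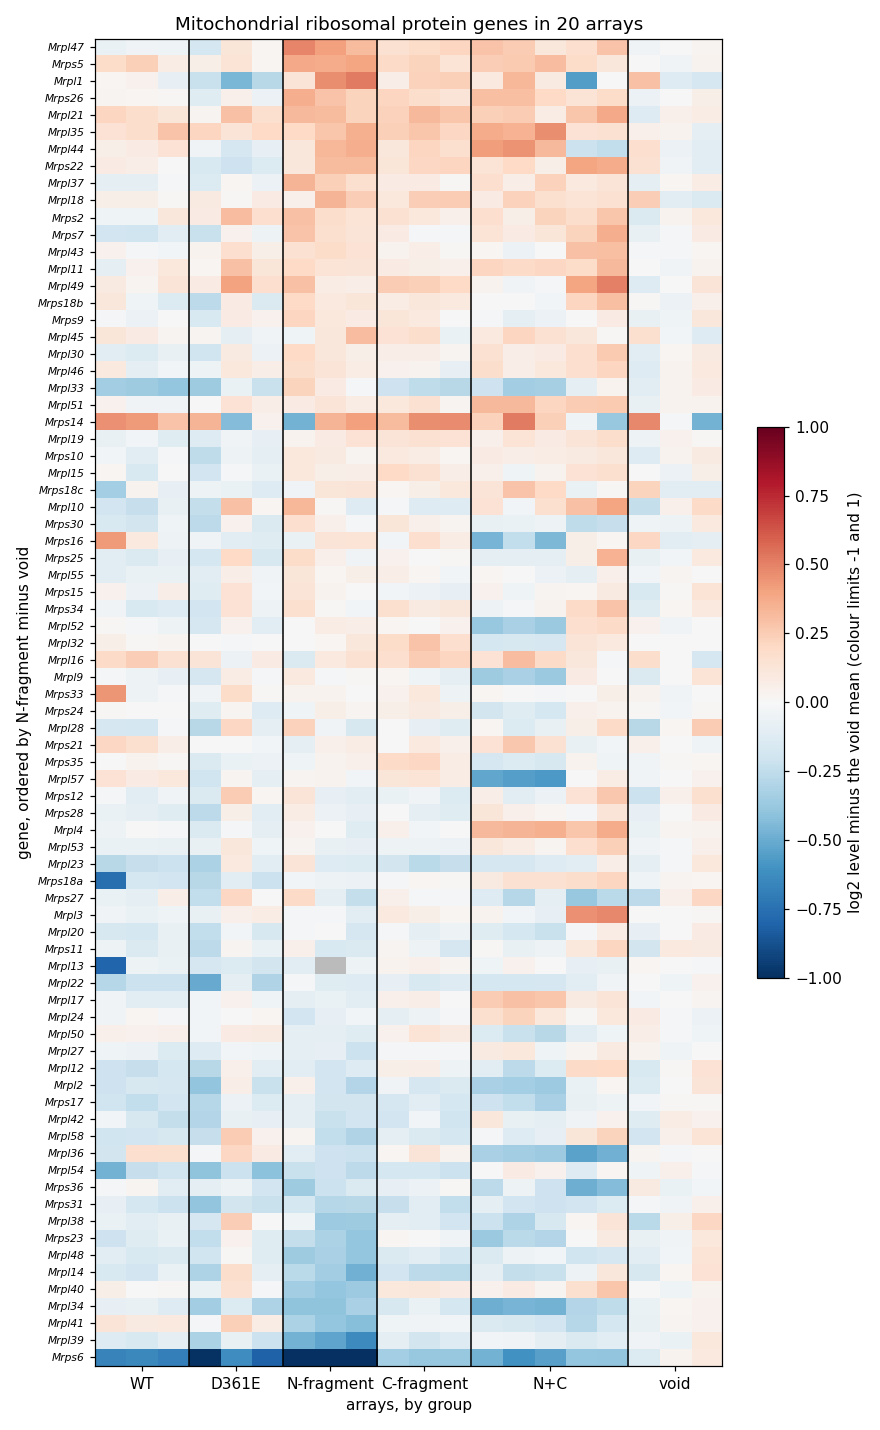
Log2 level of each of the 78 genes (rows) on each of the 20 arrays (columns, by group) minus the mean of the void arrays, with colours limited to -1 to 1 and grey for a missing value of Mrpl13. Rows run in the order of the N-fragment difference, and most rows stay pale, with Mrps6 the row that leaves the void level with every construct.

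Of the 78 members 51 were called in no comparison with void, 16 in 1, 6 in 2, 4 in 3, 0 in 4 and 1 in all 5. Across all 6 groups 30 members (38.5%) differed by the F test, against 45% of all genes. Among those 30 the highest group mean was that of N+C for 12, the N-fragment for 7, void for 6, the C-fragment for 3, D361E for 1 and WT for 1. The lowest was that of WT for 8, the N-fragment for 7, D361E for 7, N+C for 5 and void for 3. Members did not fall or rise as 1 block in any comparison. With WT 26 members lay above void and 52 below it, with D361E 22 and 56, with the N-fragment 44 and 34, with the C-fragment 48 and 30, and with N+C 45 and 33.

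**Figure D2:**
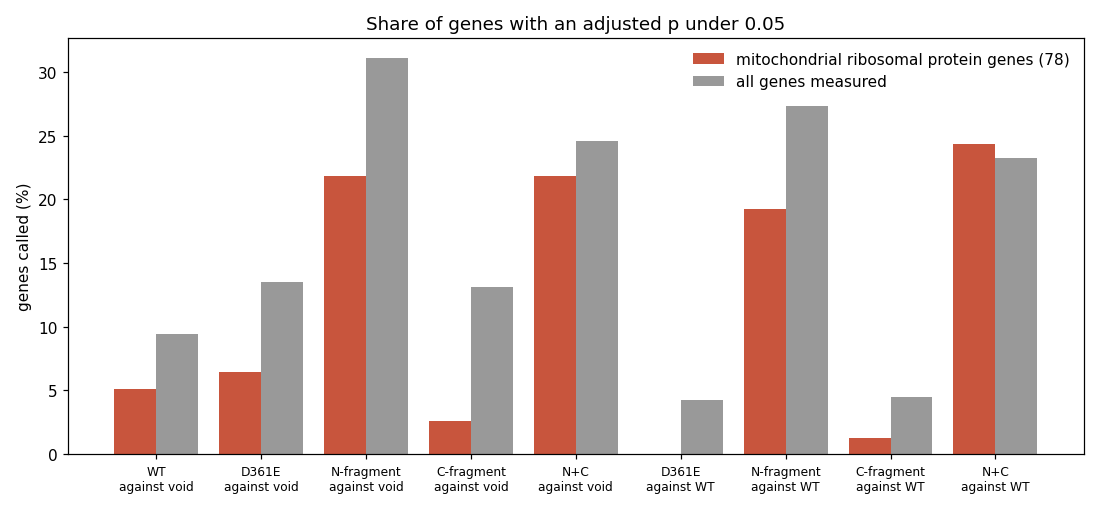
Share (percent) of the 78 genes and of all 18739 genes measured that were called changed in each of the 9 comparisons, as paired bars. The share among the 78 genes was below that among all genes in 8 of the 9, for example 21.8 against 31.1% for the N-fragment against void, the exception being N+C against WT with 24.4 against 23.3%.

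Mrps6, a protein of the small subunit that is the mitochondrial form of the bacterial ribosomal protein S6, was the member that was called with every construct. It was lower than in void cells with all 5. Its level was 4.18, 4.21 and 4.17 on WT arrays, 3.87, 4.23 and 4.04 on D361E arrays, and 3.61, 3.56 and 3.77 on N-fragment arrays. It was 4.52, 4.48 and 4.47 on C-fragment arrays, 4.38, 4.25, 4.31, 4.47 and 4.46 on N+C arrays, and 4.72, 4.89 and 4.95 on void arrays. Every array of every construct lay below all 3 void arrays, and the N-fragment arrays lay below the arrays of each other group. The difference from void was -0.67 ± 0.09 log2 with WT (1.59-fold lower, adjusted p = 0.00021), -0.81 ± 0.09 with D361E (1.75-fold, adjusted p = 1.78e-05) and -1.21 ± 0.09 with the N-fragment (2.31-fold, adjusted p = 5.6e-08). It was -0.37 ± 0.09 with the C-fragment (1.29-fold, adjusted p = 0.014) and -0.48 ± 0.08 with N+C (1.39-fold, adjusted p = 0.000414). This was the only member whose called difference reached 2-fold in any comparison with void, and the 95% interval with the N-fragment ran from -1.40 to -1.01 log2.

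From high to low the group means of Mrps6 were 4.85 in void, 4.49 with the C-fragment, 4.37 with N+C, 4.19 with WT, 4.05 with D361E and 3.65 with the N-fragment. Against WT the N-fragment difference was -0.54 log2 (adjusted p = 0.000293), while D361E differed by -0.14 log2 (adjusted p = 0.497), the C-fragment by 0.30 log2 (adjusted p = 0.0776) and N+C by 0.19 log2 (adjusted p = 0.112). WT and D361E arrays overlapped, so their order was not settled. On slides that held both groups the difference from void was -0.51 log2 with WT, -0.85 to -0.72 with D361E, -1.35 with the N-fragment, -0.25 with the C-fragment and -0.49 to -0.47 with N+C. For WT, the N-fragment and the C-fragment this was 1 array minus 1 void array on 1 slide. With the slide as a block the C-fragment call was lost (-0.28 log2, adjusted p = 0.0505), and the other 4 kept theirs. Without scaling the WT call (-0.27 log2, adjusted p = 0.0583) and the C-fragment call (adjusted p = 0.398) were lost. The C-fragment call also rested on single arrays, with an adjusted p of 0.051 without C-fragment array 2, 0.055 without void array 2 and 0.0701 without void array 3. Mrps6 had 1 probe.

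**Figure D3:**
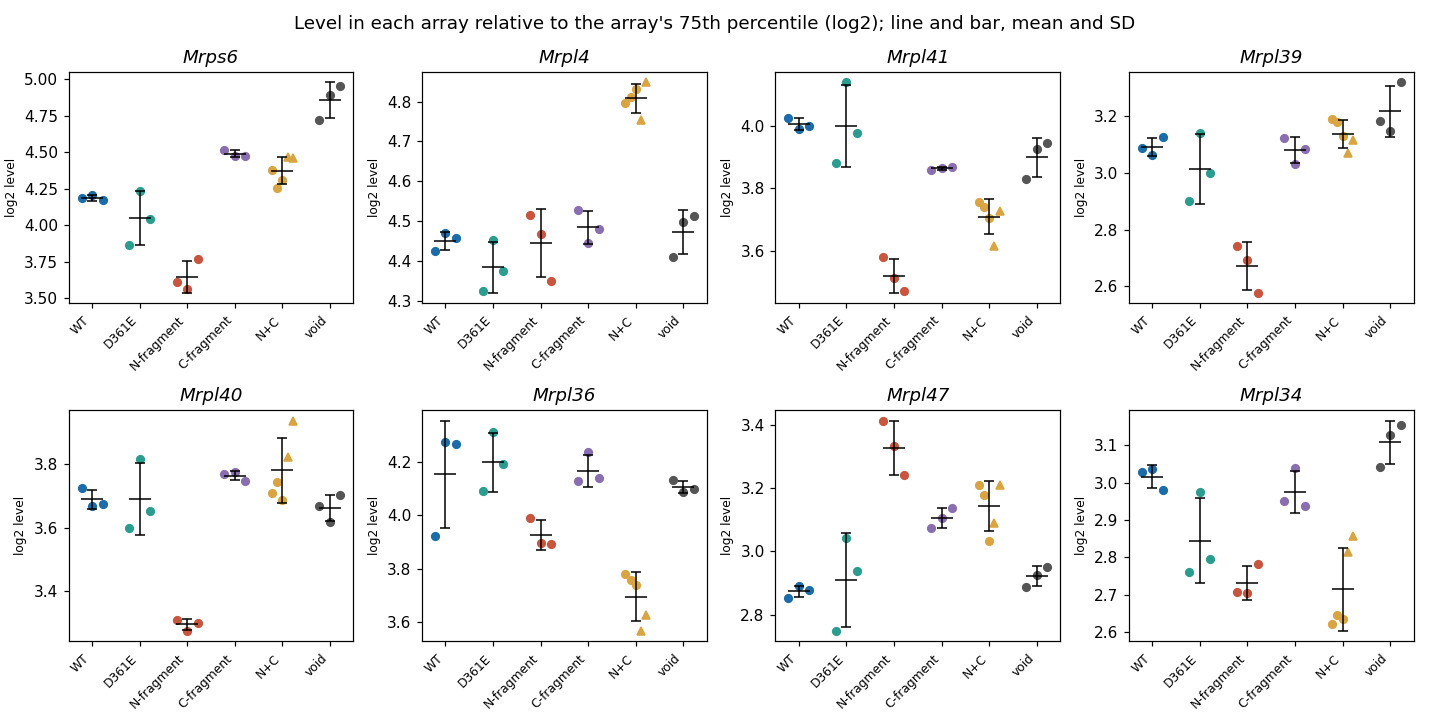
Log2 level relative to the array's 75th percentile (vertical axis) on each array (points) of the 6 groups, with the group mean and its SD, for the 8 genes with the smallest adjusted p over the 6 groups. N+C arrays 4 and 5 are drawn as triangles. Mrps6 lies below void with all 5 constructs and lowest with the N-fragment, and Mrpl4 stands high with N+C alone.

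In RefSeq Mrps6 overlaps Slc5a3, the gene of a sodium-coupled myo-inositol transporter, on the same strand, and the starts of the pair lie side by side. Slc5a3 had levels of -2.02, -1.91 and -1.40 on WT arrays, -2.15, -2.36 and -2.47 on D361E arrays and -3.47, -3.16 and -3.02 on N-fragment arrays. It had -1.68, -1.57 and -1.41 on C-fragment arrays, -2.06, -1.93, -2.06, -2.07 and -2.03 on N+C arrays, and -1.21, -1.42 and -1.56 on void arrays. As for Mrps6, the N-fragment arrays were the lowest, but WT and C-fragment arrays of Slc5a3 overlapped those of void. Slc5a3 fell with D361E (-0.93 ± 0.15 log2, adjusted p = 0.000536), the N-fragment (-1.82 log2, 3.53-fold lower, adjusted p = 1.51e-07) and N+C (-0.63 ± 0.13 log2, adjusted p = 0.00233). It was not called with WT (-0.38 log2, adjusted p = 0.13) or the C-fragment (-0.16 log2, adjusted p = 0.532). Whether each probe detects 1 of these transcripts alone was not tested, so the values of both genes are uncertain in this respect. In all, 25 members overlap another RefSeq gene, among them Mrpl14, Mrpl21, Mrpl33, Mrpl37, Mrpl48, Mrps18a and Mrps23, and the same limit applies to them.

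The promoters of 4 members, picked by hand, are shown here as RefSeq gives them (GRCm38.p6, 5′ to 3′ along the gene's strand, 250 bases before to 50 after the start). They are Mrps6 and Mrpl39, the members with the largest falls with the N-fragment, Mrpl34, and Mrpl47, the member with the largest rise with the N-fragment. Mrpl34 was lower with both the N-fragment and N+C, as were Mrps6, Mrpl41 and Mrps31. Capitals mark every match, on either strand, to the motifs CCGGAAG (the core bound by ETS factors such as GABP), GCATGCG (NRF1), AAGATGG (YY1), GGGCGGG (Sp1) and the kB consensus bound by NF-kB dimers. Mrps6 lies at chr16:92058086-92058385 on the plus strand, Mrpl39 at chr16:84735195-84735494 on the minus strand, Mrpl34 at chr8:71464676-71464975 on the plus strand and Mrpl47 at chr3:32736706-32737005 on the minus strand.
Mrps6: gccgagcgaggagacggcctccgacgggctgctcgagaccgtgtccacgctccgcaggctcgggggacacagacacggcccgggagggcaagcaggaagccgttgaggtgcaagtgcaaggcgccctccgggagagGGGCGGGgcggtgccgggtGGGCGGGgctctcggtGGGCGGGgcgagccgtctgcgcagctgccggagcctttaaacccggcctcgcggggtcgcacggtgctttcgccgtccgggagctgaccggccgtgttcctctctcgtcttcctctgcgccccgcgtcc
Mrpl39: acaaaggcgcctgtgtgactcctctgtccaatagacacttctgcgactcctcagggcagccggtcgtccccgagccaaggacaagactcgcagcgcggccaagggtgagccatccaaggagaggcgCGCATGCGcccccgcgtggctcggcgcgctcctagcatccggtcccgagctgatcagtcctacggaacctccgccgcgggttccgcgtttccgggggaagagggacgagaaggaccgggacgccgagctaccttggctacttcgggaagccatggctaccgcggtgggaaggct
Mrpl34: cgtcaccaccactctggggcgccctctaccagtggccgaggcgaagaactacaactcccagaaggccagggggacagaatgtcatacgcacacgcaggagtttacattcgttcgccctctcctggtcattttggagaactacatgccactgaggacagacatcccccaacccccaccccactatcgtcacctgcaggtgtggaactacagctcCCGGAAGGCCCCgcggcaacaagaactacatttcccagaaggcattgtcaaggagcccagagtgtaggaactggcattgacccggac
Mrpl47: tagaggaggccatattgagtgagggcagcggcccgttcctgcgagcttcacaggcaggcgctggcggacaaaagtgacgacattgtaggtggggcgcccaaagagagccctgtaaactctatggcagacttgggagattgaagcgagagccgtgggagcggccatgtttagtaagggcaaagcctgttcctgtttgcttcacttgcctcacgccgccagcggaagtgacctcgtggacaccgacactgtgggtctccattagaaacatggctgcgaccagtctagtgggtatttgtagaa

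Counted from the start of transcription, the Mrps6 window held GGGCGGG at -114, -95 and -79. The Mrpl39 window held GCATGCG at -123 and, on the other strand, at -124, which are overlapping matches since the letters are nearly the same read either way. In the Mrpl34 window CCGGAAG at -37 overlapped a match to the kB consensus at -35 on the other strand. The Mrpl47 window held none of these letters. Of 69 members with a promoter in the table, CCGGAAG was found in 26 (37.7%), against 12.9% of 17492 protein-coding genes, AAGATGG in 13 (18.8%), against 7.18%, and GCATGCG in 8 (11.6%), against 4.96%. GGGCGGG was found in 29 (42.0%), against 36.9%, and the kB consensus in 5 (7.25%), against 10.5%. Mrpl34 is 1 of these 5. The kB consensus stood in 2 of 9 promoters of members lower with the N-fragment, in 1 of 7 of those higher and in 2 of 53 of those not called, and CCGGAAG in 3, 3 and 20 of them. A match is a match of letters in these windows only.

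With the N-fragment 17 members were called, the 10 lower ones being Mrps6, Mrpl39, Mrpl41, Mrpl34, Mrpl40, Mrpl14, Mrpl48, Mrps23, Mrps31 and Mrpl54 and the 7 higher ones Mrpl47, Mrps5, Mrps26, Mrpl21, Mrpl35, Mrps22 and Mrpl37. All genes together were called higher in 13.2% and lower in 17.9%. Arrays of the groups did not overlap for 30 members (38.5%), against 43.4% of all genes. With the slide as a block 23 members were called, 11 higher and 12 lower, against 35.7% of all genes.

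Mrpl39, a large subunit protein without a bacterial counterpart, had levels of 2.74, 2.69 and 2.58 on N-fragment arrays, against 3.18, 3.15 and 3.32 on void arrays. It fell by 0.55 log2 with the N-fragment (SE 0.07, 1.46-fold lower, adjusted p = 1.36e-05), and its second probe differed by -0.44 log2 (adjusted p = 0.004). The levels of the other groups were 3.09, 3.06 and 3.12 with WT, 2.90, 3.14 and 3.00 with D361E, 3.12, 3.03 and 3.08 with the C-fragment and 3.19, 3.18, 3.13, 3.07 and 3.11 with N+C. All N-fragment arrays were below every other array, and no other construct was called (D361E -0.20 log2, adjusted p = 0.0584; N+C -0.08 log2, adjusted p = 0.388).

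Mrpl41, a large subunit protein that has been linked with p53 and cell cycle arrest, had 3.58, 3.51 and 3.47 on N-fragment arrays, 3.76, 3.74, 3.71, 3.61 and 3.73 on N+C arrays and 3.83, 3.92 and 3.94 on void arrays. It fell by 0.38 log2 with the N-fragment (SE 0.06, 1.30-fold lower, adjusted p = 0.000222) and by 0.19 log2 with N+C (adjusted p = 0.0198). It had 4.03, 3.99 and 4.00 on WT arrays, 3.88, 4.14 and 3.98 on D361E arrays and 3.86, 3.87 and 3.87 on C-fragment arrays, and was not called there. The N-fragment arrays were the lowest, the N+C arrays came next, and all of both lay below the void arrays. The N+C call was lost with the mean of both probes of the gene (-0.07 log2, adjusted p = 0.642), and without scaling the difference was -0.04 log2 with the N-fragment (adjusted p = 0.706) and 0.02 log2 with N+C. The second probe of Mrpl41 was called with neither the N-fragment nor N+C.

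Mrpl40, a large subunit protein without a bacterial counterpart, had 3.31, 3.28 and 3.30 on N-fragment arrays, against 3.67, 3.62 and 3.70 on void arrays. It fell by 0.37 log2 (SE 0.07, 1.29-fold lower, adjusted p = 0.000503). The arrays of WT (3.72, 3.67 and 3.67), D361E (3.60, 3.81 and 3.65), the C-fragment (3.77, 3.78 and 3.75) and N+C (3.71, 3.74, 3.69, 3.82 and 3.94) all lay above the N-fragment arrays. Both of its probes were called in the same direction. Without scaling the difference was -0.03 log2 (adjusted p = 0.814).

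Mrpl34, a short basic protein of bacterial type, had 2.71, 2.70 and 2.78 on N-fragment arrays, 2.62, 2.65, 2.63, 2.81 and 2.86 on N+C arrays and 3.04, 3.13 and 3.15 on void arrays. It fell by 0.38 log2 with the N-fragment (SE 0.07, 1.30-fold lower, adjusted p = 0.000897) and by 0.39 log2 with N+C (1.31-fold lower, adjusted p = 0.000367). D361E arrays, at 2.76, 2.97 and 2.80, were also called lower (-0.26 log2, adjusted p = 0.0242), whereas WT had 3.03, 3.04 and 2.98 and the C-fragment 2.95, 3.04 and 2.94. All arrays of the N-fragment, N+C and D361E were below all void arrays. The D361E call was lost in 7 other settings. On the 1 slide shared with void, with 1 array of each group, the difference was -0.45 log2 with the N-fragment. On slides shared by N+C and void it was -0.41 to -0.30 with N+C. Without scaling the difference was -0.04 with the N-fragment (adjusted p = 0.772).

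Among the higher members, Mrpl47, a large subunit protein related to bacterial L29, had 3.41, 3.33 and 3.24 on N-fragment arrays, 3.21, 3.18, 3.03, 3.09 and 3.21 on N+C arrays and 2.89, 2.93 and 2.95 on void arrays. It rose by 0.41 ± 0.07 log2 with the N-fragment (1.33-fold, adjusted p = 0.000387) and by 0.22 ± 0.06 log2 with N+C (1.17-fold, adjusted p = 0.018). C-fragment arrays, at 3.08, 3.11 and 3.14, were above void without a call (0.18 log2, adjusted p = 0.104), and WT (2.85, 2.89 and 2.88) and D361E (2.75, 3.04 and 2.94) overlapped void. Its N-fragment difference was 0.46 log2 on the shared slide and was called in every setting tried.

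Mrps5, a small subunit protein related to bacterial S5, had 0.31, 0.30 and 0.32 on N-fragment arrays, 0.17, 0.19, 0.23, 0.11 and 0.04 on N+C arrays and -0.07, -0.11 and -0.03 on void arrays. It rose by 0.38 ± 0.06 log2 with the N-fragment (adjusted p = 0.000122) and by 0.22 ± 0.05 log2 with N+C (adjusted p = 0.00557), and neither group overlapped void. Mrps26 had 5.31, 5.23 and 5.17 on N-fragment arrays, 5.25, 5.25, 5.15, 5.09 and 5.13 on N+C arrays and 4.89, 4.95 and 5.00 on void arrays. It rose by 0.29 ± 0.06 log2 with the N-fragment (adjusted p = 0.0017) and by 0.22 ± 0.05 log2 with N+C (adjusted p = 0.00679), again without overlap. No other probe of Mrps26 was called with either. Mrpl35, of bacterial type and one of the 2 members with the lowest mean signal, had -0.17, -0.09 and -0.02 on N-fragment arrays, 0.00, -0.02, 0.09, -0.23 and -0.22 on N+C arrays and -0.32, -0.34 and -0.46 on void arrays. It rose by 0.28 ± 0.08 log2 with the N-fragment (adjusted p = 0.0153) and by 0.29 ± 0.07 log2 with N+C (adjusted p = 0.0069).

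**Figure D4:**
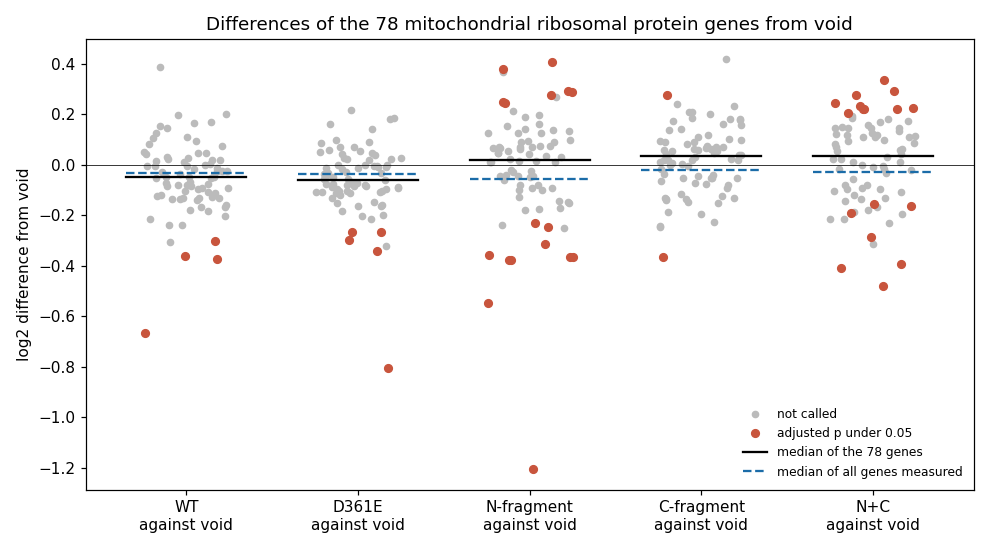
Log2 difference from void of each of the 78 genes (points) with each of the 5 constructs, called genes in red, with the median of the 78 genes and that of all genes. The points beyond 0.5 log2 are Mrps6 with WT, D361E and the N-fragment and Mrpl39 with the N-fragment, all of them below 0.

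With both fragments together 17 members were called, 10 higher and 7 lower, against 11.8 and 12.8% of all genes. The higher ones were Mrpl4, Mrpl35, Mrpl51, Mrpl21, Mrps22, Mrps26, Mrpl11, Mrps5, Mrpl47 and Mrpl17, and the lower ones Mrps6, Mrpl36, Mrpl34, Mrps36, Mrpl41, Mrps31 and Mrpl50. Groups did not overlap for 16 members (20.5%), against 24.4% of all genes. With the slide as a block 30 were called, 21 higher and 9 lower, against 33.4% of all genes. In that setting the members' share was above that of all genes.

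Mrpl4, a large subunit protein of bacterial type that lines the tunnel through which the new peptide leaves, stood high with N+C alone. Its levels were 4.80, 4.81, 4.83, 4.75 and 4.85 on N+C arrays, against 4.41, 4.50 and 4.51 on void arrays. Those of the other groups were 4.42, 4.47 and 4.46 with WT, 4.33, 4.45 and 4.38 with D361E, 4.51, 4.47 and 4.35 with the N-fragment and 4.53, 4.45 and 4.48 with the C-fragment. All 5 N+C arrays were above all 15 other arrays. The difference from void was 0.33 ± 0.05 log2 with N+C (1.26-fold higher, adjusted p = 0.000106) and -0.02 with WT, -0.09 with D361E, -0.03 with the N-fragment and 0.01 with the C-fragment. On shared slides it was 0.28 to 0.40 log2 with N+C. Its second probe differed by 0.31 log2 with N+C and was not called (adjusted p = 0.119).

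Mrpl51, a member with one of the highest mean signals, had 6.73, 6.73, 6.63, 6.66 and 6.67 on N+C arrays, against 6.34, 6.44 and 6.44 on void arrays. It rose by 0.28 ± 0.05 log2 (adjusted p = 0.000623), with no overlap. The other groups had 6.45, 6.37 and 6.37 with WT, 6.41, 6.55 and 6.47 with D361E, 6.49, 6.53 and 6.48 with the N-fragment and 6.51, 6.56 and 6.43 with the C-fragment, and none was called.

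Mrpl36, another short protein of bacterial type, was low with N+C. It had 3.78, 3.76, 3.74, 3.57 and 3.63 on N+C arrays, against 4.13, 4.09 and 4.10 on void arrays, with no overlap. It fell by 0.41 log2 (SE 0.08, 1.33-fold lower, adjusted p = 0.00128). N-fragment arrays had 3.99, 3.89 and 3.89 (-0.18 log2, adjusted p = 0.146), WT arrays 3.92, 4.27 and 4.27, D361E arrays 4.09, 4.31 and 4.19 and C-fragment arrays 4.13, 4.23 and 4.14. The N+C difference was -0.47 to -0.37 log2 on shared slides, and without scaling it was -0.20 (adjusted p = 0.194).

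The 5 N+C arrays did not vary around 1 level. Arrays 1 to 3 and arrays 4 and 5 differed without overlap for 57 of the 78 members (73.1%), against 60.8% of all genes. Across the 78 members, the deviations of an array from the mean of all 20 arrays correlated at 0.80 to 0.89 among arrays 1 to 3 and at 0.83 between arrays 4 and 5, but at -0.24 to 0.06 between the sets. Over all genes these were 0.50 to 0.58, 0.52 and -0.26 to -0.02. Arrays 1 and 4 were on the same slide. The labels give no difference between the sets, which were defined from the data. The median size of the difference between them was 0.16 log2 for members and 0.27 log2 over all genes, and 29 members lay on opposite sides of void in the 2 sets.

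The difference between the sets exceeded 0.5 log2 for 4 members, Mrpl57, Mrpl44, Mrpl52 and Mrps14. Mrpl57 had 4.38, 4.34, 4.33, 4.90 and 4.97 on N+C arrays, against 4.86, 4.89 and 4.94 on void arrays, a difference from void of -0.55 log2 in arrays 1 to 3 and 0.04 log2 in arrays 4 and 5. Mrpl44, a large subunit protein with a fold like that of RNase III, had 2.89, 2.92, 2.79, 2.25 and 2.22 on N+C arrays, which is 0.40 log2 above void in arrays 1 to 3 and -0.23 in arrays 4 and 5. Mrpl52 differed from void by -0.36 and 0.18 in the 2 sets and Mrps14 by 0.33 and -0.21. Mrpl3, a protein of bacterial type near the peptidyl transferase centre, had 3.79, 3.73, 3.67, 4.21 and 4.24 on N+C arrays and was -0.03 and 0.47 from void in the sets. None of these 5 was called with N+C against void. All members called with N+C against void had the same sign in both sets. The call used these same arrays, and opposite signs make a call less likely, so this is not a separate check. Mrpl4 differed by 0.34 and 0.33, Mrpl51 by 0.29 and 0.26 and Mrpl47 by 0.22 and 0.23. Mrps6 differed by -0.54 and -0.39, Mrpl34 by -0.47 and -0.27 and Mrpl36 by -0.35 and -0.51. The size differed more for some, such as Mrpl35 (0.39 and 0.15) and Mrps36 (-0.17 and -0.46).

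**Figure D5:**
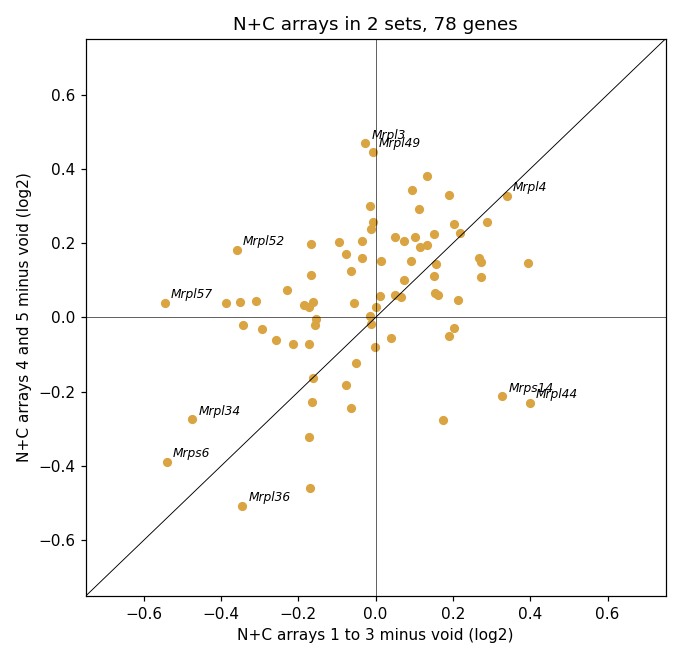
Log2 difference from void of each of the 78 genes in N+C arrays 1 to 3 (horizontal) and in N+C arrays 4 and 5 (vertical), with 10 genes labelled. Mrpl4 lies on the diagonal, Mrps6, Mrpl34 and Mrpl36 lie below 0 on both axes, and Mrpl57, Mrpl52, Mrpl44, Mrps14, Mrpl3 and Mrpl49 lie far from the diagonal.

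Fits without 1 of the sets, added after the data had been seen, called 27 members against void without arrays 4 and 5 (11 higher, 16 lower) and 19 without arrays 1 to 3 (14 higher, 5 lower). Over all genes these fits called 33.7 and 28.3%. Of the members given with values above, Mrpl21 (adjusted p = 0.0703), Mrps22 (0.13 log2, adjusted p = 0.192) and Mrps36 (adjusted p = 0.0856) were not called without arrays 4 and 5. Mrpl35 (0.15 log2, adjusted p = 0.107), Mrps5 (0.15 log2, adjusted p = 0.0759) and Mrps26 (0.16 log2, adjusted p = 0.0695) were not called without arrays 1 to 3.

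WT, D361E and the C-fragment changed few members. With WT, Mrps6, Mrps18a, Mrpl33 and Mrpl54 were called lower, while all genes were called higher in 3.22% and lower in 6.16%. Groups did not overlap for 28 members (35.9%), against 33.6% of all genes. Mrpl33, a short protein of bacterial type and another of the members with the highest mean signal, had 5.80, 5.78 and 5.76 on WT arrays, against 6.02, 6.18 and 6.22 on void arrays (-0.36 ± 0.10 log2, adjusted p = 0.0314), and the groups did not overlap. Mrps18a had 2.84, 3.41 and 3.40 on WT arrays, against 3.54, 3.61 and 3.61 on void arrays (-0.37 ± 0.11 log2, adjusted p = 0.0419), with WT array 1 far below the others. Without WT array 1 the Mrps18a difference was -0.18 log2 (adjusted p = 0.084), and with the slide as a block it was -0.32 log2 (adjusted p = 0.103). Mrpl54 had 3.52, 3.76 and 3.79 on WT arrays, against 3.95, 4.04 and 3.98 on void arrays (-0.30 ± 0.07 log2, adjusted p = 0.0181). The count was 1 without WT array 1, without void array 2 or without void array 3. Over all genes 5.43, 5.34 and 5.04% were called in these fits.

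With D361E, Mrps6, Mrpl54, Mrpl22, Mrps31 and Mrpl34 were called lower, against 6.04% of all genes higher and 7.44% lower. Groups did not overlap for 14 members (17.9%), against 31.1% of all genes. Mrpl54 had 3.59, 3.78 and 3.58 on D361E arrays (-0.34 ± 0.07 log2, adjusted p = 0.00577), below all void arrays. Mrpl22, of bacterial type, had 3.99, 4.41 and 4.19 on D361E arrays, against 4.50, 4.45 and 4.53 on void arrays (-0.30 ± 0.08 log2, adjusted p = 0.0206), with the closest pair of arrays 4.41 and 4.45. With the slide as a block 10 members were called, 2 higher and 8 lower, against 19.4% of all genes. The count was 3 without void array 3 or D361E array 3 and 2 without D361E array 1.

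With the C-fragment only Mrps6, lower, and Mrpl21, higher, were called, against 4.88% of all genes higher and 8.24% lower. Mrpl21 had 3.71, 3.81 and 3.75 on C-fragment arrays, against 3.35, 3.53 and 3.56 on void arrays (0.28 ± 0.08 log2, adjusted p = 0.0348). It was also higher with the N-fragment, at 3.80, 3.80 and 3.71 (0.29 log2, adjusted p = 0.0126). Groups did not overlap for 29 members (37.2%), against 38.9% of all genes. With the slide as a block the count was 6, all higher, and it was 0 without void array 2 or C-fragment array 2. Over all genes 14.7, 8.29 and 7.65% were called in these fits.

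Set against WT instead of void, 0 members were called with D361E, where 4.21% of all genes were (2.42% higher, 1.79% lower), and 3 passed an unadjusted p of 0.05 in limma. With the C-fragment 1 was called, where 4.44% of all genes were (2.09% higher, 2.35% lower): Mrpl19, higher by 0.22 log2 (adjusted p = 0.0203). With the N-fragment 15 were called, 9 higher and 6 lower, where 27.3% of all genes were (13.8% higher, 13.5% lower), and with N+C 19, 13 higher and 6 lower, where 23.3% were (13.6% higher, 9.67% lower). Arrays did not overlap those of WT for 9 members with D361E (26.1% of all genes), 37 with the N-fragment (47.9%), 36 with the C-fragment (38.2%) and 28 with N+C (28.1%). Without scaling the N-fragment split was 4 higher and 6 lower and the N+C split 0 and 12, with medians over all genes of -0.10 and -0.19 log2. Of all genes 21.2 and 21.4% were called there. The N+C count against WT was 28 without N+C arrays 4 and 5 (17 higher, 11 lower) and 28 without arrays 1 to 3 (23 higher, 5 lower). Over all genes these fits called 32.2 and 27.6%. With normexp background correction the splits were 5 and 6 with the N-fragment and 8 and 8 with N+C, and with quantile normalization 7 and 7 and 10 and 7. Over all genes the shares were 23.8 and 21.2% with normexp and 27.0 and 23.0% with quantile normalization. These comparisons share the WT arrays.

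Mrpl19, a large subunit protein of bacterial type, had 1.56, 1.61 and 1.66 on N-fragment arrays, 1.65, 1.67 and 1.67 on C-fragment arrays, 1.57, 1.66, 1.60, 1.65 and 1.69 on N+C arrays and 1.45, 1.49 and 1.40 on WT arrays, so that every array with a fragment lay above the WT arrays. The N-fragment difference from WT was 0.16 log2 (adjusted p = 0.0225) and the N+C difference 0.19 log2 (adjusted p = 0.0058). Mrps7, a small subunit protein of bacterial type, had 5.03, 4.91 and 4.88 on N-fragment arrays, 4.89, 4.83, 4.86, 4.97 and 5.11 on N+C arrays and 4.56, 4.55 and 4.64 on WT arrays. It was higher than with WT by 0.36 log2 with the N-fragment (adjusted p = 0.00344) and by 0.35 log2 with N+C (adjusted p = 0.00228), and was not called against void. With the mean of its probes both calls against WT were lost, at 0.13 log2 with the N-fragment (adjusted p = 0.256) and 0.17 log2 with N+C (adjusted p = 0.116). The lower members with the N-fragment against WT were Mrps6, Mrpl41 (-0.48 log2, adjusted p = 2.28e-05), Mrpl39 (-0.42 log2, adjusted p = 0.000188), Mrpl40 (-0.39 log2, adjusted p = 0.000311), Mrpl34 and Mrpl48. With N+C they were Mrpl36 (-0.46 log2, adjusted p = 0.000538), Mrpl57, Mrpl34, Mrpl41, Mrps36 and Mrpl50. Without N+C arrays 1 to 3, Mrpl57 (-0.07 log2, adjusted p = 0.396) and Mrpl34 (-0.18 log2, adjusted p = 0.0581) were not called, and without arrays 4 and 5 Mrps36 was not (-0.13 log2, adjusted p = 0.185). Mrps36 was also not called with the slide as a block (-0.15 log2, adjusted p = 0.132), nor was Mrpl41 with the mean of its probes (-0.11 log2, adjusted p = 0.408).

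Of 11 members described whatever their values, mostly for a role beyond the ribosome or at its active sites, Mrpl41, Mrps22 and Mrps36 were called in at least 1 comparison with void. Mrpl12, which also binds the mitochondrial RNA polymerase, differed from void by -0.20 log2 with WT, -0.11 with D361E, -0.14 with the N-fragment, 0.02 with the C-fragment and -0.02 with N+C. Mrpl58, a peptidyl-tRNA hydrolase that frees stalled ribosomes, differed by -0.18, 0.02, -0.17, -0.14 and 0.02 in the same order. Mrps12, the counterpart of bacterial S12 at the decoding site, stayed within -0.08 to 0.06 log2. Mrps18b, which has been described as a partner of the retinoblastoma protein, ranged from -0.11 with D361E to 0.14 with the N-fragment. Mrps2 ranged from 0.01 to 0.20 and Mrps16 from -0.22 to 0.15, neither called. Mrps22, a small subunit protein without a bacterial counterpart, was called just under the threshold with the N-fragment (0.25 ± 0.09 log2, adjusted p = 0.0498) and N+C (0.23 ± 0.08 log2, adjusted p = 0.0488), and with the slide as a block the N-fragment call was lost (0.27 log2, adjusted p = 0.0566). Mrps36, now counted as a subunit of the oxoglutarate dehydrogenase complex rather than of the ribosome, had 3.74, 3.95, 3.80, 3.51 and 3.56 on N+C arrays, against 4.09, 3.94 and 3.97 on void arrays (-0.29 ± 0.09 log2, adjusted p = 0.0236), and the groups overlapped. Mrpl1, counterpart of the bacterial stalk protein L1 and the other of the 2 members with the lowest mean signal, had the second widest span and no call: -1.36, -1.03 and -0.98 with the N-fragment (0.37 ± 0.18 log2, adjusted p = 0.137) against -1.20, -1.62 and -1.66 in void.

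The 47 members not singled out for description had group means that spanned 0.11 to 0.43 log2, with a median of 0.22. Of these 10 were called in at least 1 of the 9 comparisons, and their differences lay between -0.40 and 0.42 log2. By more than 1 probe, 22 members could be checked. In 13 cases where the probe used was called, the other probes of the gene had the same sign in 12, and no probe was called in the opposite direction. No other probe was itself called for Mrpl22 with D361E or for Mrpl4 and Mrpl47 with N+C. The same held for Mrpl41 and Mrps26 with both the N-fragment and N+C.

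Many of these genes start back to back with a neighbour. Of 69 members with a start in the RefSeq promoter table, 25 (36.2%) had another protein-coding gene starting on the other strand within 1000 bases, against 8.66% of 17492 genes. With the N-fragment 8 such members were called. The neighbour was called in the same direction for 4: Hira beside Mrpl40 (-0.43 log2 for Hira, adjusted p = 0.00143), Pnpla7 beside Mrpl41 (-0.80 log2, adjusted p = 0.00296), Tmem63b beside Mrpl14 (-0.28 log2, adjusted p = 0.00116) and Ighmbp2 beside Mrpl21 (0.53 log2, adjusted p = 6e-05). For Mrpl47 it was called in the opposite direction, with Ndufb5, a subunit of respiratory complex I, at -0.28 log2 (adjusted p = 0.0129). Of the 17 such members not called, 3 had a called neighbour. With N+C 6 were called, 2 with a neighbour called in the same direction and 0 in the opposite, and 4 of the 19 not called had a called neighbour. With D361E 0 of these 25 members were called and 4 had a called neighbour. Over all genes 31.1% were called with the N-fragment, 24.6% with N+C and 13.5% with D361E, in either direction. Whether the genes of a pair share their regulation was not tested.

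Other genes that serve the mitochondrial ribosome were read from lists chosen with earlier results of these data known. The share of each list called is given in the order WT, D361E, N-fragment, C-fragment and N+C, each against void. Over all genes these shares were 9.39, 13.5, 31.1, 13.1 and 24.6%. Of 6 mitoribosomal proteins with other names, 1 was higher and 1 lower with the N-fragment (Ptcd3, a small subunit protein, 0.29 ± 0.05 log2, adjusted p = 0.000245; Aurkaip1 -0.17 log2, adjusted p = 0.0292), 1 was higher with the C-fragment and none was called with WT, D361E or N+C. The shares of these 6 genes called were 0, 0, 33.3, 16.7 and 0%. Of 13 measured translation factors the calls were all lower: 1 with WT, 2 with D361E, 3 with the N-fragment, 2 with the C-fragment and 3 with N+C. Without scaling they were 7, 0, 7, 1 and 4 higher and 0, 1, 0, 0 and 0 lower. For this and the unscaled counts of the lists below, the shares over all genes were 41.0, 12.8, 39.7, 18.0 and 29.7%. With scaling the shares of translation factors called were 7.69, 15.4, 23.1, 15.4 and 23.1%. Guf1, a mitochondrial elongation factor of the LepA type, was lower with every construct: -0.42 log2 with WT (adjusted p = 0.00013), -0.49 with D361E (adjusted p = 1.51e-05), -0.42 with the N-fragment (adjusted p = 2.19e-05), -0.32 with the C-fragment (adjusted p = 0.00121) and -0.42 with N+C (adjusted p = 1.08e-05). Mrrf, the ribosome recycling factor, fell by 0.51 log2 with the N-fragment (adjusted p = 0.000138) and by 0.51 log2 with N+C (adjusted p = 7.71e-05).

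Of 28 assembly and rRNA modification genes, 1 was higher and 0 lower with WT, 1 and 2 with D361E, 3 and 4 with the N-fragment, 1 and 3 with the C-fragment and 2 and 3 with N+C. Without scaling these were 12 and 0, 3 and 0, 14 and 0, 5 and 0, and 7 and 0. Rpusd4, a pseudouridine synthase of the mitochondrial large rRNA, rose by 1.73 ± 0.11 log2 with the N-fragment (adjusted p = 9.71e-09). Trmt61b, a methyltransferase of mitochondrial tRNA and rRNA, was higher by 0.55 log2 with the N-fragment (adjusted p = 0.000807) and by 0.57 log2 with N+C (adjusted p = 0.000329). Of 23 measured genes of mitochondrial DNA transcription and RNA processing, 0 were higher and 0 lower with WT, 0 and 2 with D361E, 3 and 3 with the N-fragment, 1 and 0 with the C-fragment and 3 and 2 with N+C. The shares of these 23 genes called were 0, 8.70, 26.1, 4.35 and 21.7%. Hsd17b10, a subunit of mitochondrial RNase P, fell by 0.57 log2 with the N-fragment, and Elac2, which trims tRNA ends, rose by 0.65 log2.

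Of 12 regulators of nuclear genes for mitochondria, 0 were called with WT, 1 was higher and 3 lower with D361E, 3 and 2 with the N-fragment, 1 and 1 with the C-fragment and 2 and 1 with N+C. The shares of these 12 genes called were 0, 33.3, 41.7, 16.7 and 25%, against 9.39, 13.5, 31.1, 13.1 and 24.6% of all genes. Ppargc1a, the coactivator PGC-1alpha, had the largest differences of this list: -2.42 log2 with D361E, -1.79 with the N-fragment, -1.21 with the C-fragment and -3.42 with N+C (adjusted p = 2.74e-10). Nrf1, a transcription factor that binds promoters of many mitochondrial genes, was higher by 0.25 log2 with D361E, 0.41 with the N-fragment and 0.32 with N+C. Myc fell by 0.71 log2 with D361E and was higher by 1.04 with the N-fragment and 0.57 with N+C.

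The proteins of the cytosolic ribosome and the nuclear-encoded subunits of oxidative phosphorylation were counted in the same way. Of 79 cytosolic ribosomal protein genes measured, 0 were higher and 23 lower with WT, 0 and 8 with D361E, 2 and 10 with the N-fragment, 0 and 1 with the C-fragment and 0 and 6 with N+C, with medians of -0.23, -0.15, -0.09, -0.07 and -0.10 log2. With quantile normalization the WT count was 0 and 1, with normexp background correction 0 and 1, and without scaling 21 and 0. In the main fit the shares of these 79 genes called were 29.1, 10.1, 15.2, 1.27 and 7.59%. Of 81 oxidative phosphorylation genes measured, 1 was higher and 11 lower with WT, 1 and 13 with D361E, 1 and 35 with the N-fragment, 2 and 7 with the C-fragment and 6 and 18 with N+C. The shares of these 81 genes called were 14.8, 17.3, 44.4, 11.1 and 29.6%, against 9.39, 13.5, 31.1, 13.1 and 24.6% of all genes. With the N-fragment their median was -0.21 log2, and the count was 2 and 35 with quantile normalization, 1 and 32 with normexp background correction and 15 and 1 without scaling. With the N-fragment Ndufb4, of complex I, fell by 0.60 log2 (adjusted p = 1.21e-06) and Cox7a1, of cytochrome c oxidase, rose by 1.34 log2. Of 17 mitochondrial aminoacyl-tRNA synthetases measured, 1 was lower with WT, 1 with D361E and 4 with the N-fragment, and 0 with the C-fragment or N+C. Without scaling 10 were higher with WT and 6 with the N-fragment. With scaling the shares of these 17 genes called were 5.88, 5.88, 23.5, 0 and 0%.

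The N+C counts of these lists moved with the set of N+C arrays. Over all genes 33.7% were called against void without arrays 4 and 5 and 28.3% without arrays 1 to 3. Without arrays 4 and 5, and then without arrays 1 to 3, oxidative phosphorylation genes gave 13 higher and 15 lower, then 5 and 27. Cytosolic ribosomal proteins gave 1 and 7, then 1 and 4, and translation factors 1 and 3 both times. Assembly and rRNA modification genes gave 2 and 4, then 4 and 2, genes of mitochondrial DNA transcription and RNA processing 5 and 3, then 1 and 2, and regulators 3 and 1, then 1 and 2. The synthetases gave 1 and 1, then 2 and 0, and the mitoribosomal proteins with other names 0 and 2, then 0 and 0.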

How the data were processed

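Total RNA of 20 samples was labelled with Cy3 and hybridized to 1-colour Agilent arrays of 44397 features. The authors deposited scanner output as intensity values, made with version 10.7.3.1 of Agilent Feature Extraction according to the submitters' processing notes. The processed signal is background-subtracted, per the file headers. The deposited series table equals that signal on all 887940 values, so it is not scaled between arrays.

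The intensities were put on the log2 scale here from the deposited processed signal, minus the 75th percentile of the non-control probes of the array, which differed up to 1.45-fold between arrays. Outlier spots, 98 to 285 per array, were left out, and 0 were saturated. Probes above background on at least 3 arrays were kept (23433), and each gene was represented by its brightest probe. Accessions in a RefSeq gene table gave symbols to 28663 of 39429 probes (72.7%). A linear model over all 20 arrays and 6 groups was fitted with limma 3.58.1 in R 4.3.3 (residual df 14, prior df 1.44), with Benjamini-Hochberg adjustment within each of the 9 comparisons. The number of arrays limits the precision. The fit was run on simulated arrays with independent noise. These had no slide effect and no split of the N+C arrays, so they do not speak for the fit where either matters.

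Members and lists were chosen with earlier results of these data known. Members named with values were the 2 with the highest and the 2 with the lowest mean signal, the 8 with the smallest adjusted p over the 6 groups, per comparison up to 3 called members per direction without overlap, and those with a role of their own. Mrps14, Mrpl49 and Mrpl52 were named after their values were seen. Of each list up to 2 called genes per direction were eligible. Alternatives were quantile normalization, normexp on the median signal (offset 50, since the files hold no mean signal) with quantile normalization, no scaling, other filters and probe summaries, only the groups compared, trend and robust moderation, and the slide as a block. Promoters are those of the RefSeq table.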

Additional observations from a re-analysis of the deposited data

How the results depend on the processing

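No paired analysis was possible because sample titles hold running numbers and no replicate numbers to pair by, and the slide was used as a block instead. The counts of members called depend most on scaling between arrays. With the unscaled table they were, against void, 53 with WT, 3 with D361E, 48 with the N-fragment, 23 with the C-fragment and 34 with N+C, against WT 8 with D361E and 12 with N+C, and 51 over the 6 groups. Of all genes 41.0, 12.8, 39.7, 18.0 and 29.7% were called against void. Against WT 7.49 and 21.4% were called, and 52.7% over the 6 groups. In that setting 5 named differences changed sign: Mrpl33 (0.037), Mrpl54 (0.10) and Mrps18a (0.026) with WT, Mrpl54 with the N-fragment (0.10) and Mrpl41 with N+C (0.024). Quantile normalization gave 2 with WT and 4 with the C-fragment, and normexp 2 with WT, 3 with D361E, 5 with the C-fragment and 0 for the C-fragment against WT. The shares of all genes were 8.64 and 13.0%, then 8.22, 11.2, 11.8 and 2.83%.

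Without the filter, which leaves more genes to adjust over, the counts were 1 with WT, 3 with D361E, 1 with the C-fragment, 10 with N+C, and against WT 0 with the C-fragment and 12 with N+C. The shares of all genes were 3.49, 6.03, 5.18 and 11.9%, and against WT 1.46 and 10.4%. A filter on all arrays gave 5 for the C-fragment and 2 for it against WT, the mean of probes 4 and 2, and trend with robust moderation 2 for the C-fragment against WT. Of all genes 16.1 and 5.68%, 12.8 and 4.23%, and 4.78% were called in these settings. With only the groups compared, and so fewer samples in the fit, the counts were 2 with WT, 1 with D361E, 1 for the C-fragment and 5 with N+C, and against WT 5 with the C-fragment and 10 with N+C. The shares of all genes were 8.18, 7.74, 13.7 and 10.8%, and against WT 12.3 and 14.1%. With the slide as a fixed block they were 10 with D361E, 6 with the C-fragment, 30 with N+C, 7 for the C-fragment against WT and 47 over the 6 groups, and as a random block (correlation 0.29) 5 with the C-fragment, 26 with N+C and 4 for the C-fragment against WT. In the same order the shares of all genes were 19.4, 14.7, 33.4, 9.07 and 53.4%, then 15.7, 31.3 and 8.39%. The cause was not tested where the setting's construction does not give it.

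Of alternatives added after the data had been seen, leaving out N+C arrays 4 and 5 gave 27 for N+C against void, and leaving out all N+C arrays gave 6 with the C-fragment and 2 for it against WT. Of all genes 33.7, 20.0 and 9.31% were called in these cases. Without all N+C arrays, 15.4% of all genes were called with WT, 20.0% with D361E, 37.5% with the N-fragment and 20.0% with the C-fragment. In the main fit these were 9.39, 13.5, 31.1 and 13.1%. The main fit uses 1 spread estimate over all 20 arrays, both N+C sets included, also where N+C is not compared. Leaving out 1 array at a time gave, against void, 1 to 3 with WT, 2 to 6 with D361E, 12 to 18 with the N-fragment, 0 to 2 with the C-fragment and 11 to 19 with N+C. Against WT it gave 0 with D361E throughout, 12 to 14 with the N-fragment, 0 to 2 with the C-fragment and 14 to 22 with N+C, and 22 to 31 over the 6 groups. Without void array 2 the N+C count was 11, against 18.5% of all genes. For the C-fragment against void the count was 1 without void array 3, C-fragment array 1 or C-fragment array 3, and against WT it was 0 without WT array 1 or any 1 C-fragment array and 2 without WT array 2. Over all genes 8.09, 8.66 and 8.23% were called against void in these fits. Against WT the shares were 2.11% without WT array 1 and 2.37% without WT array 2. They were 2.19, 2.36 and 2.33% without C-fragment arrays 1, 2 and 3.

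Of 61 calls on named members, 16 were made in every setting: Mrps6 with D361E, the N-fragment and N+C against void and the N-fragment against WT, Mrpl39 and Mrpl47 with the N-fragment against void and WT, Mrps5 and Mrps26 with the N-fragment against void, Mrpl4 and Mrpl51 with N+C against void, Mrpl34, Mrpl40 and Mrpl41 with the N-fragment against WT, and Mrpl36 with N+C against WT. The other 45 were lost in at least 1 setting, 29 of them in the unscaled table.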
